A study of Mus musculus with 16 samples.

Results

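The promoters of 8 transcription factors that define hepatocytes, Hnf4a, Foxa1, Foxa2, Foxa3, Cebpa, Cebpb, Onecut1 and Prox1, were followed through 4 lists of promoter contacts from mouse liver. The members were chosen by gene name: each is the HindIII fragment that holds the start of the gene record in the GENCODE vM1 annotation of build mm9, and every pair with an end on such a fragment was taken. All 8 fragments were baits, which gave 8 of 18165 baits and 223 of 247177 distinct pairs. Promoter Capture Hi-C cuts crosslinked chromatin with the restriction enzyme HindIII, ligates ends that lie close together, and enriches with RNA probes the products that contain a promoter fragment, the bait. The livers came from male C57BL/6 mice, an inbred strain, of wild type genotype, labelled 8 weeks old and fed ad libitum under 12 h of light and 12 h of dark. The methods name this age together with 2 weeks under that cycle, so the mice may have been older when the livers were taken. They were taken at zeitgeber times (hours after lights on) ZT0, ZT6, ZT12 and ZT18, with 3 pools of 2 livers at each and a second sequencing lane for pool A, hence 16 samples. The pools of a timepoint are merged into 1 list, so each value below exists once per timepoint, no difference between timepoints has a replicate check, and no test was made. Whole liver also contains cells other than hepatocytes, and the lists hold neither RNA nor cell labels, so the tissue could not be checked against marker genes and a contact cannot be assigned to a cell type.

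Hepatocyte identity is kept by a small set of factors that bind each other's regulatory DNA as well as the metabolic genes of the liver. Hnf4a encodes a nuclear receptor, Foxa1, Foxa2 and Foxa3 encode forkhead proteins that can bind nucleosomal DNA, Cebpa and Cebpb encode basic leucine zipper proteins, Onecut1 encodes HNF6, which carries a cut domain and a homeodomain, and Prox1 encodes a homeodomain protein that is needed for liver growth in the embryo. Promoters of such genes are commonly surrounded by distal enhancers, which a capture assay records as contacted fragments without a bait.

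Sequences are shown for some of the promoters and for contacted fragments picked from those of at most 300 bp, not for their scores. The windows cover the 300 bases before the annotated start, read from mm9 on the strand of the gene, and overlap no annotated exon. In Foxa3 the capitals mark, in order, the HindIII site AAGCTT, the letters CAGGGGGC from the core of the CTCF motif and TATAAA. In Cebpa they mark the E-box CACGTG, CAGGGGGC and TATAAA. In Cebpb they mark CAGGGGGC and in Onecut1 CACGTG. The last pair of sequences are whole, short contacted fragments without a searched motif. They are not typical, since 129 of the 194 contacted fragments without a bait held TATAAA and 115 held TTGCNNAA.
Foxa3 promoter (chr7:19608888-19609187, minus strand): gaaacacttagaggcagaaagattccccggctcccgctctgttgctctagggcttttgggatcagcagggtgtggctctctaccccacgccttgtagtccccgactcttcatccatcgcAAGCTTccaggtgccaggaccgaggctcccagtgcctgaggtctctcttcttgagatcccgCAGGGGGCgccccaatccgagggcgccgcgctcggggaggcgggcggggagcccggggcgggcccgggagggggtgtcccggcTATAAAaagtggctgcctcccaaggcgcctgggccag
Cebpa promoter (chr7:35904012-35904311, plus strand): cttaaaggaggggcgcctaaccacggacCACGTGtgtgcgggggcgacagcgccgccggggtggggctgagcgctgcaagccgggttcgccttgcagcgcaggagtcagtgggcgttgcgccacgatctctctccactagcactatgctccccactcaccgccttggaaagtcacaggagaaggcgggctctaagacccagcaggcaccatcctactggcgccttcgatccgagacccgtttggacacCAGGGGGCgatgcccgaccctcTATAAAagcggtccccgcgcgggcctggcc
Cebpb promoter (chr2:167514115-167514414, plus strand): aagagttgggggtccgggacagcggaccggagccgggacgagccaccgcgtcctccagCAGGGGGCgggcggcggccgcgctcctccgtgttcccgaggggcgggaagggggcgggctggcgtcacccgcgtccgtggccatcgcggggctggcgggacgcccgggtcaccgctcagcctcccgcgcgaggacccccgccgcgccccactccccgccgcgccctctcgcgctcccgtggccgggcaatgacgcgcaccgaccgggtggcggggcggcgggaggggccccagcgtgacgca
Onecut1 promoter (chr9:74709428-74709727, plus strand): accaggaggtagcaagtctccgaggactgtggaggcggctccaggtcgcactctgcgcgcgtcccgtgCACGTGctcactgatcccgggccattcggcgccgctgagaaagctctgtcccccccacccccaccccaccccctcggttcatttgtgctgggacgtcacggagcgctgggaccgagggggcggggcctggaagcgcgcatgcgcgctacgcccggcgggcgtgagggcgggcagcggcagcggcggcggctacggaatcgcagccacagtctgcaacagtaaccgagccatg
Fragment contacted by Cebpa (chr7:35957639-35957894, plus strand): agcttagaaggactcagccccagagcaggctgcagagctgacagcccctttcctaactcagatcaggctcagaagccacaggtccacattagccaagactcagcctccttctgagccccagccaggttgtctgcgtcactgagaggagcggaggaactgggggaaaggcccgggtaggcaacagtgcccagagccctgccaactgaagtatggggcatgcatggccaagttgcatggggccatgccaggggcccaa
Fragment contacted by Onecut1 (chr9:74178693-74178982, plus strand): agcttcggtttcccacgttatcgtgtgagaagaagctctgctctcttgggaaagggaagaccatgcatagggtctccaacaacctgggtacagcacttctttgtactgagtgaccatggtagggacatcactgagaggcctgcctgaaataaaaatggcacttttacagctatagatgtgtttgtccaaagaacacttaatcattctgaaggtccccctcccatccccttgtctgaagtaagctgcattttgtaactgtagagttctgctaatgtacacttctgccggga

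The letters CAGGGGGC were found, on either strand, in 3 of the 8 member windows (Foxa3, Cebpa and Cebpb), and in 3.33% of 22346 windows of the same length before protein-coding starts. They began 120, 52 and 242 bases before the starts of Foxa3, Cebpa and Cebpb. The E-box CACGTG was found in 2 of the 8, Cebpa and Onecut1, against 7.39% of all windows. TATAAA was found in 4 of the 8, Foxa2, Foxa3, Cebpa and Prox1, against 14.6%. It began 37 bases before the start in Foxa3 and 30 bases before it in Cebpa, and lay on the other strand, 284 and 181 bases before the start, in Foxa2 and Prox1. The FOXA letters TGTTTAC were found only in the window of Foxa1 (3.46% of all windows). The letters searched for HNF4 (CAAAGTCCA), C/EBP (TTGCNNAA), ONECUT (ATCGAT) and the D-box (TTATGTAA) were in none of the 8, against 0.474%, 11.2%, 0.967% and 1.02% of all windows. The GC content ran from 48.7% at Foxa2 to 80.3% at Cebpb, with a median of 53.3% over all windows. A match of letters is a description of the window and not a binding site.

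In the 194 contacts of the members that have no bait at the other end, 576 kb in all, the same letters were counted per kb and set beside the 111722 listed fragments that were never baits. The FOXA letters occurred 0.163 times per kb against 0.149, the C/EBP letters 0.422 against 0.434 and the E-box 0.144 against 0.138. The CTCF letters, with 21 matches in all, occurred 0.0364 times per kb against 0.0320. The ONECUT letters, with 22 matches, occurred 0.0382 times against 0.0317, and the HNF4 letters, with 9, 0.0156 times against 0.0154. TATAAA occurred 0.718 times per kb against 0.932, and the D-box letters, with 18 matches in all, 0.0312 times against 0.0460.

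The number of contacts differed widely between the 8 promoters. In any of the lists, Onecut1 had 76 contacted fragments, Cebpb 46, Cebpa 36, Foxa2 18, Foxa1 and Foxa3 16 each, Hnf4a 12 and Prox1 3. Over all baits the median was 9 contacts, with quartiles of 4 and 21 and a most of 202. Onecut1 stood at percentile 98.2 of all baits, with 309 baits above it, Cebpb at 92.9 and Cebpa at 88.4. Foxa2, Foxa1, Foxa3 and Hnf4a stood between percentiles 57.6 and 70.3, and Prox1 at 16.8. Onecut1, Cebpb and Cebpa together supplied 158 of the 223 contacts, so any figure pooled over the 8 promoters is largely theirs. The baits of these 3 promoters, at 8616, 10413 and 7926 bp, were longer than those of the other members except Foxa2, whose bait of 20012 bp was the longest, and the shortest, that of Foxa3, was 1245 bp long. The median over all baits was 5861 bp, and the part of bait length in the number of contacts was not tested.

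**Figure D1:**
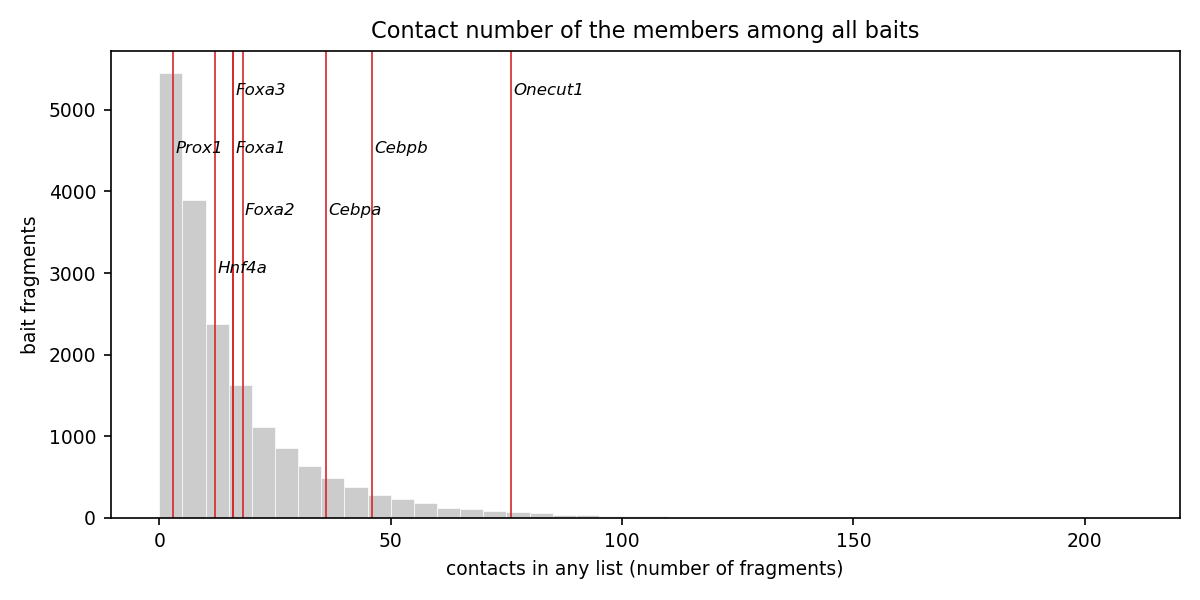
Number of baits (vertical axis) by contacts in any list (horizontal axis, bins of 5 fragments) for all 18165 baits, in grey; red lines mark the 8 factor promoters. Onecut1 at 76 lies in the tail of the distribution, Prox1 at 3 in its lowest bin, and Foxa1 and Foxa3 share the line at 16.

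A further 19 liver factors gave a setting for these numbers: Onecut2, Hhex, Gata4, Gata6, Nr5a2, Nr1h4, Nr0b2, Rxra, Ppara, Cebpd, Cebpg, Dbp, Tef, Hlf, Klf15, Atf5, Creb3l3, Xbp1 and Tbx3. The start of Cebpd lay on no bait, and the other 18 had a median of 22.5 contacts with quartiles of 14 and 34.2, beside a median of 17 for the members. Of these 18, 14 lay above the median of all baits, as did 7 of the 8 members. The most contacts were those of Hlf, a PAR bZIP factor, with 115. Of their 524 contacts, 38.9% were in all 4 lists.

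No contact joined 2 of the 8 promoters. Hnf4a, Foxa2 and Cebpb share chromosome 2 and Foxa3 and Cebpa share chromosome 7, but far apart. The closest, Hnf4a and Cebpb, start at 163332544 and 167514415, and the longest contact of any member was 884 kb. At such separations the absence of a contact says little about these promoters. No contact left its own chromosome, and of all 247177 pairs 246979 also joined fragments of the same chromosome. The median distance between the midpoints of bait and contacted fragment was 202 kb (interval of order statistics 176 to 222 kb), and 162 kb over all pairs. The other end was a bait as well in 29 of 223 contacts, or 13.0% (95% Wilson interval 9.21 to 18.1%), against 15.4% of all pairs. Such intervals cover counting error only, and neighbouring fragments touched by the same bait are not independent. Of the 194 contacts without a bait at the other end, the member bait held the nearest protein-coding start for 82, or 42.3% (35.5 to 49.3%), against 13.8% of such contacts over all baits that hold a protein-coding start. This came from Onecut1 with 37 of 74, Cebpb with 19 of 45, Foxa2 with 18 of 18, Cebpa with 7 of 30 and Foxa1 with 1 of 13. It was 0 of 9 for Hnf4a, 0 of 2 for Foxa3 and 0 of 3 for Prox1. For the 19 contacts of Cebpb, the nearest start was that of Tmem189 on the same bait. The start of Cebpb itself was nearest to none of its contacts.

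**Figure D2:**
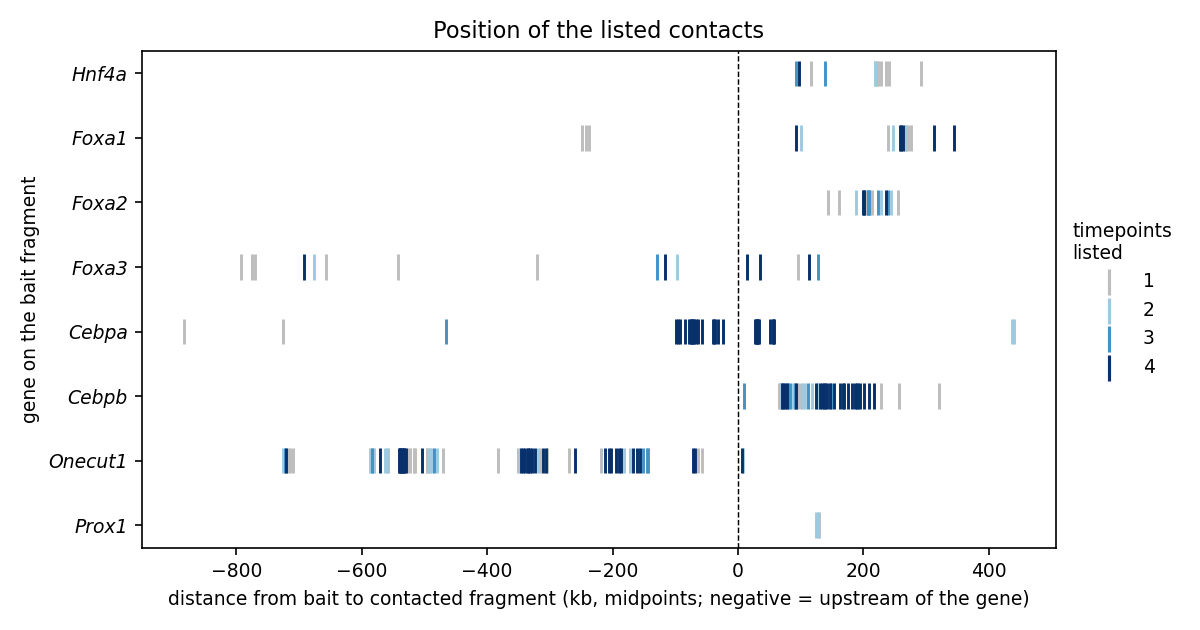
Distance in kb from each bait to the fragments it contacted (horizontal axis; negative values lie upstream of the gene), 1 row for each promoter, with colour giving the number of lists that hold the contact. Cebpb, Foxa2, Hnf4a and Prox1 made all their contacts downstream, Onecut1 made 74 of 76 upstream, and Cebpa had contacts in every list on both sides within 100 kb.

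Contacts were next sorted by the number of lists that hold them. Of the 223, 100 were in all 4 lists, or 44.8% (38.5 to 51.4%), beside 32.5% of all pairs. In 1 list only were 57 of 223, or 25.6% (20.3 to 31.7%), beside 35.2% of all pairs. Of the 97 that reached a score of 10 in some list, 84, or 86.6% (78.4 to 92.0%), were in all 4, beside 89.7% of all such pairs. The score is that of CHiCAGO, a caller that weighs the reads joining a pair of fragments against a modelled background, and only pairs with a score of at least 5 were listed. The share in all 4 lists was 72.2% for Cebpa (26 of 36), 52.2% for Cebpb (24 of 46), 46.1% for Onecut1 (35 of 76), 37.5% for Foxa1 (6 of 16), 31.2% for Foxa3 (5 of 16), 16.7% for Foxa2 (3 of 18), 8.33% for Hnf4a (1 of 12) and 0 of 3 for Prox1. Over the 3 promoters with at least 30 contacts it was 53.8% (46.0 to 61.4%), beside 39.6% of the contacts of all baits with as many, and over the other 5 it was 23.1% (14.5 to 34.6%), beside 26.5% for all baits with fewer. When another contacted fragment of the same promoter within 10 kb was accepted, 81.2% of the contacts were matched in all 4 lists, beside 68.5% of the contacts of all baits and 80.2% for all baits with at least 30 contacts.

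The number of contacts at each time of day was then compared. Together the 8 promoters had 145, 165, 155 and 153 contacts in the lists of ZT0, ZT6, ZT12 and ZT18, between 0.0991% and 0.107% of each list. The lists held 146262, 154775, 151529 and 151347 pairs in that order, so that of ZT6 was the longest. Once the longer lists were shortened to the 146262 pairs that scored highest, the totals were 145, 158, 154 and 152. ZT6 still had the most, by a smaller margin. Without Onecut1 the other 7 had 94, 101, 104 and 111, so the most at ZT6 was due to that promoter. Hnf4a had 3, 7, 5 and 5 in that order, Foxa1 10, 8, 10 and 9, Foxa2 10, 14, 11 and 8, and Foxa3 8, 7, 11 and 11. Cebpa had 27, 32, 33 and 36, Cebpb 34, 33, 34 and 39, Onecut1 51, 64, 51 and 42, and Prox1 2, 0, 0 and 3. Onecut1, Foxa2 and Hnf4a thus had most at ZT6, Cebpa, Cebpb and Prox1 at ZT18. How many of all baits had most at each timepoint was not counted, so this sorting has no background. Of the 7 members with a mean of at least 5 contacts, 4 (Hnf4a, Foxa2, Foxa3 and Onecut1) had at least 1.5 times as many in their fullest list as in their sparsest, a property of 52.9% of all such baits and of 8 of the 14 further factors with as many contacts. The members are therefore near the background in this respect. With Prox1 counted, 5 of the 8 members passed 1.5 times, and 4 did in lists of equal length.

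**Figure D3:**
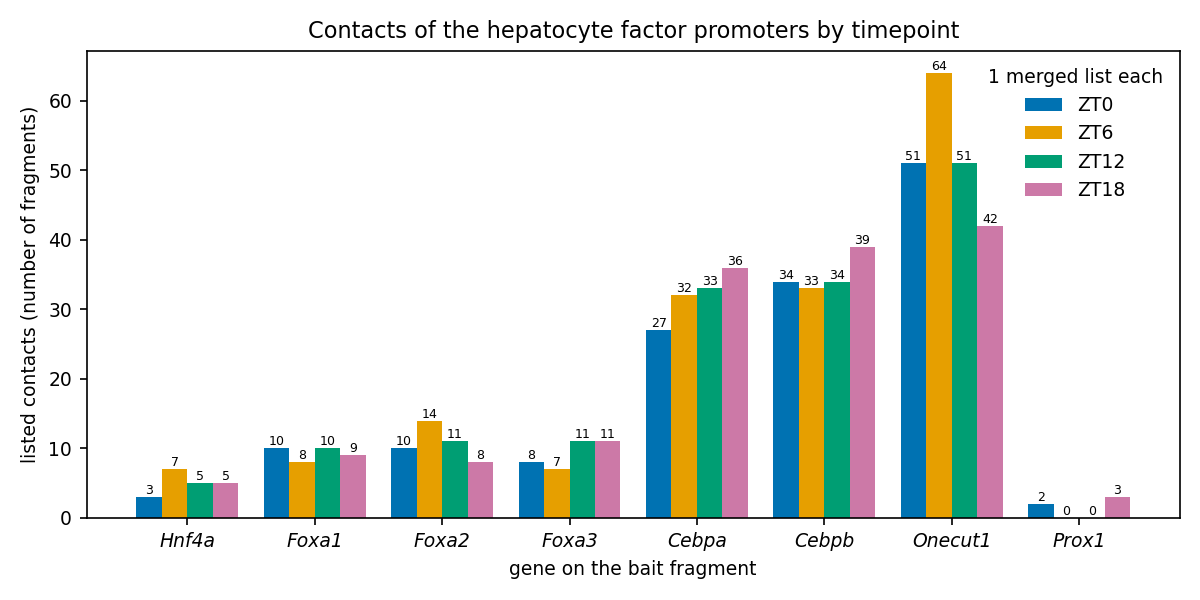
Number of listed contacts (vertical axis) of each factor promoter at ZT0, ZT6, ZT12 and ZT18 (bars, 1 merged list each, hence no error bar). Onecut1 ranged from 42 at ZT18 to 64 at ZT6, Cebpa from 27 at ZT0 to 36 at ZT18, and Prox1 had contacts at ZT0 and ZT18 only.

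Timepoints follow the labels of the samples, which name the list each belongs to. A supplementary summary of the study puts the totals of 3 lists elsewhere: the lists called ZT6, ZT12 and ZT18 here would be ZT18, ZT6 and ZT12. ZT0 is the same in both orders. The order was not settled from the values, and each statement on a timepoint other than ZT0 holds for the list of that label.

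The scores of the contacts were then compared between timepoints. Among contacts in all 4 lists, those of Cebpa had median scores of 7.70, 7.49, 10.01 and 11.5 in the order of the timepoints, and those of Cebpb 10.5, 7.96, 12.8 and 14.4. For Onecut1 the medians were 11.1, 14.1, 11.6 and 11.9. All pairs in the 4 lists had medians of 8.75, 8.95, 8.98 and 8.98, so the lists as wholes did not shift by as much. At Cebpa every contact had its highest score at ZT18 (20 of 26) or ZT12 (6 of 26), and its lowest at ZT0 (15) or ZT6 (11). At Cebpb the highest was at ZT18 for 12 of 24 and at ZT12 for 9, and the lowest at ZT6 for 17 and at ZT0 for 7. At Onecut1 the highest was at ZT6 for 19 of 35, followed by ZT18 for 8, ZT0 for 5 and ZT12 for 3, and the lowest was at ZT18 for 12 and at ZT12 for 11. Over all pairs in the 4 lists the highest score fell at ZT0, ZT6, ZT12 and ZT18 in 22.2%, 26.2%, 25.6% and 26.0%, and the lowest in 28.6%, 24.8%, 23.6% and 23.1%.

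Both scores of the later lists, ZT12 and ZT18, exceeded both scores of ZT0 and ZT6 in 22 of 26 contacts of Cebpa and in 19 of 24 of Cebpb, but in 2 of 35 of Onecut1, against 20.2% of all pairs. These contacts share their bait and often adjoin each other, so they are not separate measurements. Of the 1144 baits with at least 20 contacts in all 4 lists, 21.9% had at least 50% of the highest scores at a single timepoint, and Cebpa, Cebpb and Onecut1, the only members with so many, all did. In the other order of the lists, the higher scores of Cebpa and Cebpb would lie at ZT6 and ZT12, and those of Onecut1 at ZT18.

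Contacts with a score of at least 10 were also counted in each list. These counts come from the same scores and are not separate support. From ZT0 to ZT18, Cebpa had 5, 6, 13 and 20 of them. Cebpb had 13, 8, 21 and 20, and Onecut1 had 21, 30, 23 and 20. Over the 8 promoters they numbered 40, 50, 65 and 65, which is 27.6%, 30.3%, 41.9% and 42.5% of their listed contacts, while over all pairs the share was between 21.9% and 22.2% in every list.

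**Figure D4:**
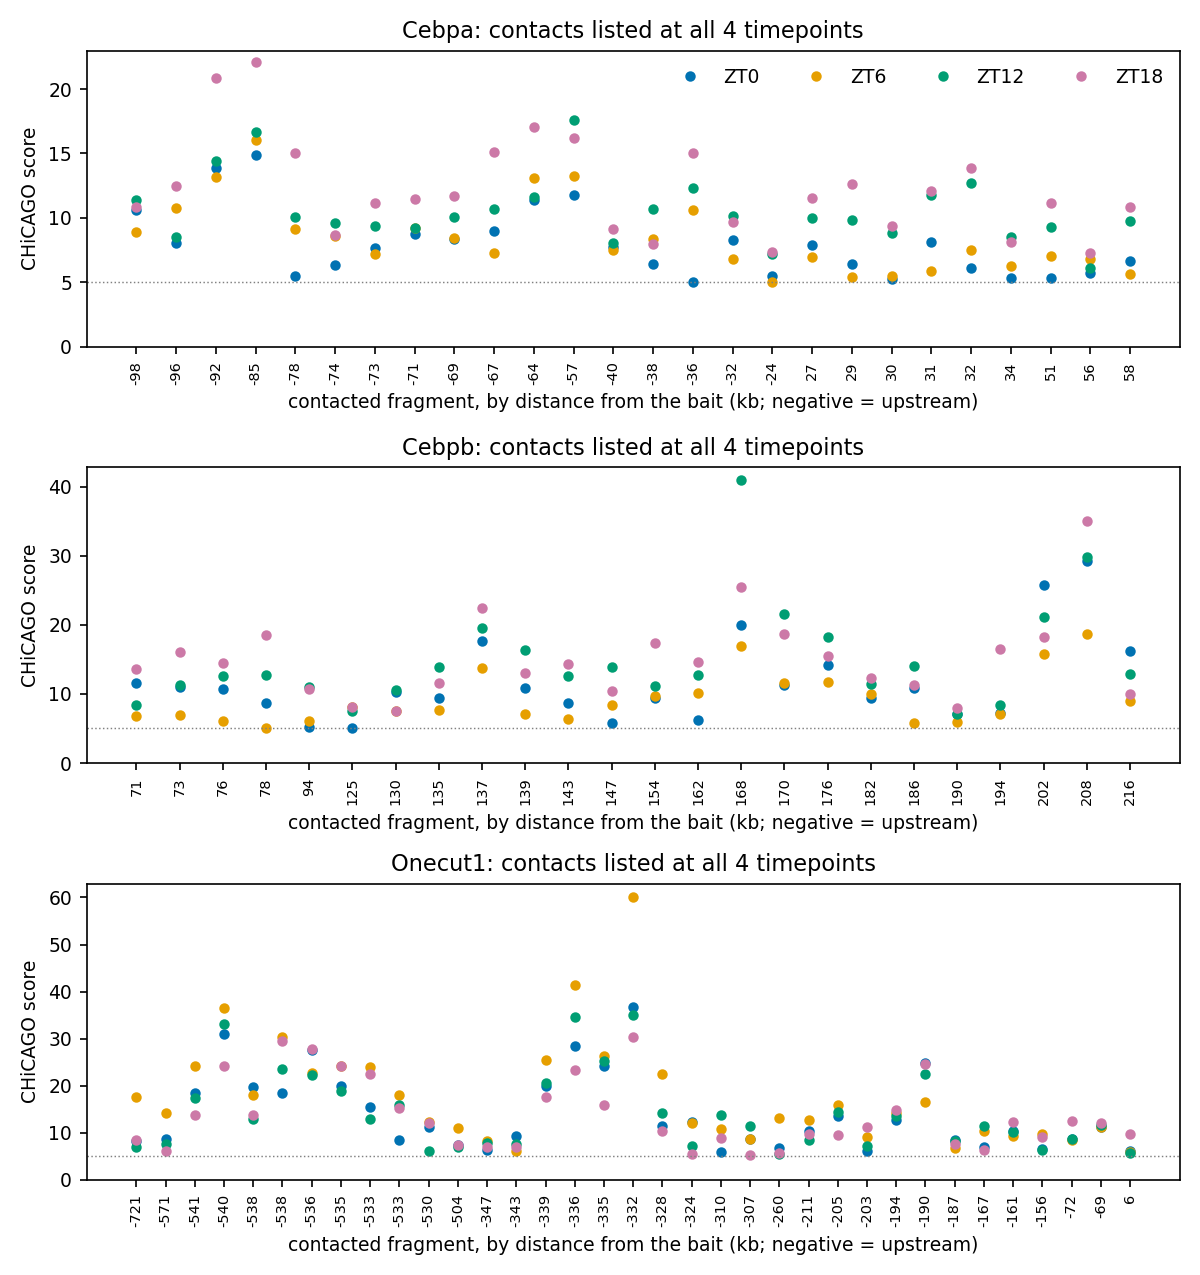
CHiCAGO score (vertical axis, from 0; dotted line at the listing minimum of 5) of every contact in all 4 lists for Cebpa, Cebpb and Onecut1, ordered by distance from the bait (horizontal axis, kb), with colour giving the timepoint. For Cebpa the ZT12 and ZT18 points lie above those of ZT0 and ZT6 on both sides of the gene for 22 of 26 fragments, while at Onecut1 the highest point, 60.18, is that of ZT6.

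**Figure D5:**
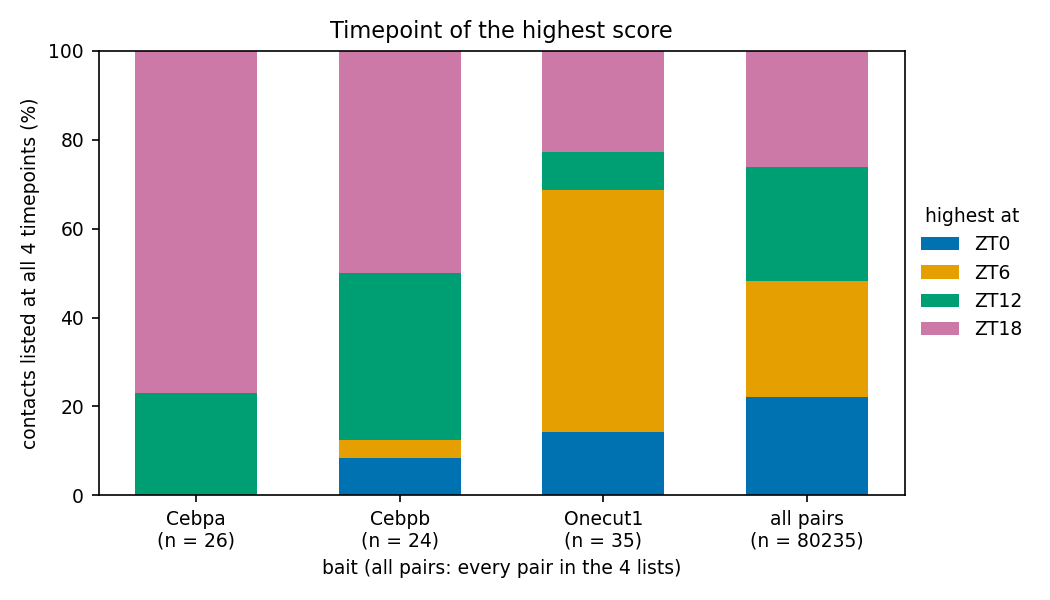
Share of contacts in all 4 lists (vertical axis, %) whose highest score fell at each timepoint, for Cebpa (26 contacts), Cebpb (24), Onecut1 (35) and all 80235 such pairs. ZT18 and ZT12 make up the whole bar of Cebpa and most of that of Cebpb, ZT6 is the largest part for Onecut1, and the 4 timepoints are near equal over all pairs.

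Hnf4a lies on the plus strand of chromosome 2, with the gene record starting at 163332544 on a bait of 7792 bp (163328582 to 163336373). This start is the upstream of the alternative promoters of the gene, and the form of the protein that dominates in adult liver is made from the internal promoter. All 12 contacts of the upstream bait lay downstream, between 93.0 and 292 kb. The contact with the bait of Ttpal, which encodes a protein of the tocopherol transfer family, was the only one in every list, with scores of 5.62, 6.57, 5.69 and 6.53. That with the bait of Serinc3, a membrane protein gene, scored 7.5, 7.49 and 5.66 at ZT0, ZT6 and ZT12 and was not listed at ZT18. Of a group of 7 fragments between 218 and 242 kb, over Ada, which encodes adenosine deaminase, and the neighbouring Pkig, none was listed at ZT0. At ZT6, ZT12 and ZT18, 3, 2 and 3 of them were listed, with scores of at most 6.7. The fragment at 218 kb was listed at both ZT12 and ZT18, and each of the others in a single list. No contact of this bait reached a score above 7.5.

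The internal start, at 163372923 and 40.4 kb into the gene, lies on a fragment of 3477 bp (163371091 to 163374567) that was never a bait, so its contacts could be seen only from elsewhere. It had 1 contact, with the bait 6.17 kb away that holds the start of the non-coding gene 0610008F07Rik (163362868 to 163370456), with scores of 15.25, 17.38, 18.28 and 16.22. These were above every score of the upstream bait in each list, but they belong to another bait at a much shorter distance. The contacts of the upstream bait lay at 93.0 kb or more, so the scores do not compare the 2 starts. The neighbouring bait, singled out after its values were seen, had 21 contacts, 12 of them in every list, and 7 of the 21 lay within Hnf4a. A fragment at a further start of Hnf4a (163361186 to 163362867) was contacted by the Ttpal bait, 68.5 kb away, with scores of 7.8, 7.3, 8.26 and 7.41. Of the baits that share contacted fragments with the upstream promoter, the likest was that of Fitm2, with 7 shared fragments of its 14 and of the 12 of Hnf4a (Jaccard index, shared over all fragments of either, 0.368).

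Foxa1, on the minus strand of chromosome 12 with its start at 58647108, had 13 contacts downstream and 3 upstream. The contact with the highest score was also the farthest, the bait of Slc25a21, a mitochondrial carrier gene, at 345 kb, with scores of 9.24, 7.55, 13.06 and 9.15. The bait that holds the starts of Mipol1 and Prps1l3, at 313 kb, scored 6.47, 10.05, 12.23 and 9.78. Both were highest at ZT12. Of the 6 contacts of Foxa1 in every list, 3 were highest at ZT12, 2 at ZT6 and 1 at ZT18. Mipol1 extends towards Foxa1, and 9 further fragments within its body, 240 to 276 kb from Foxa1, were contacted in 1 to 4 of the lists. The bait of the non-coding Gm16246, at 93.3 kb, scored 8.69, 7.41, 8.32 and 10.34. The 3 upstream fragments, 237 to 248 kb away, appeared at ZT0 or ZT18 and never at both. The likest baits were those of the pseudogene Rpl26-ps2 (9 shared fragments, index 0.333) and of Ttc6 (12 shared, 0.324).

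Foxa2, on the minus strand of chromosome 2 with its start at 147872705, contacted fragments downstream only, all without an annotated gene on them. Of its 18 contacts, 16 lay in a stretch of 71.2 kb between 188 and 256 kb from the bait, and for all 18 the nearest protein-coding start was that of Foxa2 itself. Of the 18 fragments, 17 were contacted by no other bait, or 94.4% (74.2 to 99.0%), against 31.6% of pairs with a single bait end over the series. The contacts with the highest scores were those at 202 kb, with 7.13, 13.09, 7.86 and 5.27, at 239 kb, with 9.11, 12.31, no listing and 5.99, and at 199 kb, with 7.92, 11.81, 6.71 and 7.2. Each was highest at ZT6, as was the third contact in every list, at 237 kb, with 7.04, 7.8, 7.71 and 7.02. The fragment at 201 kb, between those at 199 and 202 kb, was highest at ZT12 instead. It was not listed at ZT0 and scored 6.82, 11.2 and 9.27 at ZT6, ZT12 and ZT18. Within the stretch, 10, 13, 11 and 7 fragments were listed at ZT0, ZT6, ZT12 and ZT18. The bait of 20012 bp also holds the start of 9030622O22Rik, so contacts of the 2 starts cannot be told apart.

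Foxa3, on the minus strand of chromosome 7 with its start at 19608887, lies in a stretch with 46 protein-coding starts within 500 kb, the most of the 8. Of its 16 contacts, 14 were with other baits. Without Foxa3, 7.25% of the member contacts were promoter contacts, against 13.0% with it. The strongest was with Irf2bp1, a transcriptional corepressor gene, at 15.2 kb, with scores of 12.29, 7.85, 12.78 and 16.08. Irf2bp1 was in every list, as were the baits of Qpctl at 116 kb (8.44, 5.54, 9.51 and 11.05), of Nanos2 at 35.1 kb (9.49, 5.28, 6.83 and 6.45) and of Tomm40, a mitochondrial import gene, at 692 kb (7.89, 9.48, 8.37 and 11.81). The Tomm40 contact passes 40 protein-coding starts. These partners were not particular to Foxa3: the fragments of Tomm40, Qpctl, Irf2bp1 and Nanos2 were contacted by 47, 40, 27 and 15 baits. Next to Tomm40 in the apolipoprotein cluster, the bait of Apoe scored 7.38 at ZT12 and 5.54 at ZT18. That of Apoc4 and Apoc2 scored 8.03 at ZT12, and neither bait was listed at ZT0 or ZT6. Snrpd2, a spliceosomal gene at 129 kb, scored 9.14, 11.21 and 10.13 at ZT0, ZT12 and ZT18 and was absent at ZT6. The bait of Cblc, at 775 kb, scored 11.2 at ZT12 and was in no other list.

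The HindIII site printed in the Foxa3 window ends the Foxa3 bait 176 bp from the start of the gene. The next fragment is the bait of Sympk, whose start is 839 bp from that of Foxa3, so the promoter window of Foxa3 is divided between the 2 baits. The pair shared 13 contacted fragments, of 16 for Foxa3 and 22 for Sympk (index 0.520), the likest bait to Foxa3 in the series. Contacts of the promoter bases beyond the site are listed under Sympk.

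Cebpa, on the plus strand of chromosome 7 with its start at 35904312, had 23 contacts upstream and 13 downstream, at a median distance of 65.5 kb, the shortest of the 8. Upstream, 15 adjoining fragments between 57.5 and 98.0 kb ran through a part of Pepd, which encodes a peptidase of proline dipeptides, and through Cebpg, and 12 of them were in every list. The strongest lay in Pepd at 84.7 kb, with 14.88, 16.02, 16.63 and 22.12, and at 92.2 kb, with 13.87, 13.18, 14.43 and 20.89. The bait of Cebpg, a C/EBP family member that lacks an activation domain, scored 11.74, 13.26, 17.58 and 16.17. It shared 16 fragments with Cebpa, of 29 and 36 (index 0.327). Cebpg itself did not show the time course of Cebpa: among its 13 contacts in every list the median scores were 8.76, 10.4, 10.7 and 7.64, and 6 were highest at ZT6, 5 at ZT12 and 2 at ZT18.

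Nearer to Cebpa, 5 fragments between 23.6 and 40.2 kb upstream were in every list, without an exception, and so were 6 fragments between 27.2 and 34.2 kb downstream. On none of the 6 is a gene annotated. Their scores at ZT0 were 7.91, 6.4, 5.23, 8.09, 6.11 and 5.3, and at ZT18 they were 11.55, 12.63, 9.39, 12.09, 13.83 and 8.12. All 6 were thus higher at ZT18, as were all 26 contacts in every list. Another 5 fragments lay between 51.4 and 57.8 kb downstream, among them the 256 bp fragment printed above, with no listing at ZT0 and scores of 5.54, 6.62 and 6.67 at ZT6, ZT12 and ZT18. The distant contacts were weak: Kctd15, a BTB domain gene, at 466 kb scored 6.72, 6.29 and 5.11 at ZT6, ZT12 and ZT18, and Nudt19, a Nudix hydrolase gene, at 437 kb scored 5.24 at ZT0 and 5.87 at ZT18.

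Cebpb, on the plus strand of chromosome 2 with its start at 167514415, had all 46 contacts downstream, of which 43 formed a single run of fragments with gaps of at most 10 kb, from 66.0 to 228 kb. No protein-coding start lay between the bait and this run. It contains the non-coding genes Gm14321, 9230111E07Rik, 1200007C13Rik and Gm14319. Of the 45 contacts without a bait, 32 were contacted by no other bait, or 71.1% (56.6 to 82.3%), against 31.6% over the series. The strongest contact, at 168 kb, scored 19.95, 16.94, 41.03 and 25.5. The next, at 208 kb, scored 29.28, 18.72, 29.8 and 35.03, and the third, at 202 kb, 25.71, 15.75, 21.21 and 18.21. All 3 were lowest at ZT6 and differed in the timepoint of the highest score. Of the 24 contacts in every list, 23 scored more at ZT18 than at ZT6, and 21 more at ZT18 than at ZT0.

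The only bait contacted by Cebpb was that of Fam65c, at 321 kb, with 6.16 at ZT12. A fragment within Ptpn1, which encodes a tyrosine phosphatase, scored 6.12 at ZT6 and was in no other list. The Cebpb bait, of 10413 bp, also holds the start of A530013C23Rik and a start of Tmem189 on the other strand, so the contacts belong to the fragment and cannot be assigned to 1 gene. The likest baits were those of Ube2v1, with 14 shared fragments, 30.4% of the contacts of Cebpb and 21.9% of its own (index 0.146), and of a second Tmem189 record, with 8 shared, 17.4% and 44.4% (0.143).

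Onecut1, on the plus strand of chromosome 9 with its start at 74709728, had 74 of its 76 contacts upstream, at a median distance of 367 kb, the longest of the 8. No protein-coding start lay between the bait and any of them. All 76 contacts, upstream and downstream, fell into 9 groups. The largest lay 470 to 541 kb upstream (22 fragments), 305 to 351 kb upstream (15) and 143 to 219 kb upstream (15). The strongest contact of the 8 promoters was in the middle of these, at 332 kb, with 36.72, 60.18, 35.09 and 30.42. Its neighbour at 336 kb scored 28.3, 41.4, 34.53 and 23.22. In the farther group, the fragment at 540 kb scored 30.86, 36.57, 33.09 and 24.2. These 3 were highest at ZT6 and lowest at ZT18, whereas the fragment at 190.0 kb was lowest at ZT6, with 24.76, 16.56, 22.51 and 24.52. The 290 bp fragment printed above lies in the farther group, at 533 kb, and scored 8.4, 18.02, 15.86 and 15.31.

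The groups of Onecut1 differed in how many fragments were listed with time. The 22 fragments 470 to 541 kb upstream gave 16, 19, 12 and 10 contacts at ZT0, ZT6, ZT12 and ZT18, and the 9 fragments 558 to 588 kb upstream gave 4, 7, 6 and 3. The farthest group, 709 to 726 kb upstream and within Wdr72, gave 2, 5, 4 and 1. By contrast, the 15 fragments 305 to 351 kb upstream gave 11, 14, 11 and 11, and the 15 fragments 143 to 219 kb upstream gave 12, 13, 14 and 11. The drop from ZT6 to ZT18 in the number of contacts, from 64 to 42, was therefore mostly in groups more than 470 kb away.

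The likest bait to Onecut1 was that of AC100600.1, a microRNA gene inside Onecut1 and 7.44 kb downstream of the bait. It shared 73 of the 76 fragments of Onecut1 and of its own 121 (index 0.589), and its 43 contacts in every list were highest at ZT6 in 28 and lowest at ZT18 in 28, with median scores of 12.4, 20.7, 16.0 and 10.04. The baits lie so close that they do not measure separate places. The next likest, that of a SNORA48 gene 81.0 kb upstream, shared 25 of its 31 fragments with Onecut1 (index 0.305). Only 1 of the 74 fragments without a bait was contacted by Onecut1 alone, 1.35% (0.239 to 7.27%).

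Prox1, on the minus strand of chromosome 1 with its start at 191994559, had 3 contacts, on adjoining fragments 125 to 130.0 kb downstream, where the nearest protein-coding start was that of Smyd2, a methyltransferase gene. The fragment at 127 kb scored 7.59 at ZT0 and 9.23 at ZT18, that at 125 kb 7.51 and 7.61, and that at 130.0 kb 6.34 at ZT18. None was listed at ZT6 or ZT12, where a pair just under the minimum score would be absent too. The bait also holds the start of Gm17566.

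Contacts lay mostly to 1 side of several promoters. Of the 7 members with at least 10 contacts, 4 (Hnf4a, Foxa2, Cebpb and Onecut1) had at least 95% of them on the same side, which 28.3% of all baits with as many contacts had. Downstream was the side for Hnf4a, Foxa2 and Cebpb, all on chromosome 2, and upstream for Onecut1.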

How the data were processed

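The authors mapped the reads to mm9 with HiCUP, merged the pools of each timepoint and called contacts with CHiCAGO. The deposited score is a transformed p-value that CHiCAGO weights, with a background fitted for each timepoint, and the lists start at a score of 5. A pair below it is absent, which is no measurement of few reads. The read depth behind the lists was not analysed here.

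Lists were read in python 3.11.15 with pandas 2.3.3, numpy 2.4.6 and scipy 1.17.1, and plotted with matplotlib 3.10.9. The mm9 genome was cut at HindIII sites into 823377 fragments, which matched 129886 of 129887 listed ones. Pairs were taken without order, and a bait is a fragment listed as the first end in any list. Counting was tested on simulated lists. Intervals are 95% Wilson intervals, or order statistics for medians. A pair that reached a score of 10 in any list was called strong.

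Genes named beside a member start on, or else overlap, 1 of its 3 contacts with the highest scores, or start on 1 of up to 5 contacted baits with the highest scores. The bait with the highest Jaccard index, over at least 3 shared fragments, was named too, and for Foxa1, Cebpb and Onecut1 also the next. Other named genes were picked with their values in view. Some items of the lists are not reported here. The members and lists were chosen with earlier results of these data known. No test was made, since each timepoint is 1 merged list. Alternatives were other score minimums, equal list lengths, first ends only, other bait and fragment definitions, a tolerance of 10 kb, each member left out, and another order of the timepoints.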

Additional observations from a re-analysis of the deposited data

How the results depend on the processing

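Of 139 alternative values, 120 stayed close to the reported ones, meaning within 1.5 times for a count and within the 95% interval for a share or median, and 19 moved. At a score of at least 7, the contacts numbered 88, 97, 110 and 104 from ZT0 to ZT18, with the most at ZT12 in place of ZT6, while the share in all 4 lists fell to 32.9% and the median distance to 170 kb. At a score of at least 10, the contacts numbered 40, 50, 65 and 65 at ZT0, ZT6, ZT12 and ZT18, with 25.8% in all 4 lists and 38.1% in 1 only. With members as the first listed end only, the share of promoter contacts was 6.73%. Without the promoter of Foxa3 it was 7.25%, and without Onecut1 18.4%. Without Cebpb the median distance was 236 kb. Without Onecut1 it was 139 kb, and the contacts numbered 94, 101, 104 and 111, with the most at ZT18. With a tolerance of 10 kb, 81.2% of contacts were in all 4 lists and 6.28% in 1 only. The cause of these shifts was not tested, beyond the construction of each alternative. The other order of the timepoints moves the timepoint to which each score belongs. It could not change a pooled share, median or fold count and only exchanged totals between lists, so its closeness was fixed in advance. Baits at the start of any transcript were the same fragments as the baits used here, so those values could not move either. Both settings are counted among the 139, and their closeness says nothing about robustness. Counting fragments at the start of any transcript, bait or not, was added after seeing the data and moved nothing past these limits. No paired analysis was possible because a timepoint is represented by 1 list, in which its pools are no longer separate, and for the same reason no replicate could be left out.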
